A study of Mus musculus with 4 samples.

Results

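This account covers the 2 estrogen receptor genes, 5 genes for proteins that nuclear receptors recruit to DNA, and the receptor genes Rara and Nr3c1. These 9 genes were taken by symbol from the deposited table of 16230 genes, and all 9 were found in it. RNA had been sequenced from spleen cells sorted as CD4 T cells, in 4 libraries. In 2 libraries, labelled as lacking estrogen receptor α (CD4creERafl/fl) and called the Cre-labelled libraries, the cells descended from donors with loxP-flanked Esr1 alleles and a Cre recombinase driven from Cd4, which is active in developing T cells and so should remove part of Esr1 from the whole T lineage. In the other 2 libraries, the controls (ERafl/fl), donor cells carried the flanked alleles without Cre. All hosts were Rag-/- mice, which make no T or B cells of their own but keep myeloid cells, natural killer cells and red cells. Each host had received naive CD4 T cells 8 weeks before and had colitis. Ages are not given, nor whether a library came from 1 animal or a pool, so the spread between libraries of a group may be technical.

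Estrogen receptors are transcription factors that bind DNA as dimers once estrogen occupies them. Esr1 encodes estrogen receptor α and Esr2 encodes estrogen receptor β. A receptor with its hormone recruits coactivators of the p160 family, encoded by Ncoa1, Ncoa2 and Ncoa3, which bring in enzymes that acetylate and methylate histones. Many nuclear receptors without hormone hold instead a corepressor complex around NCOR1, which carries the histone deacetylase HDAC3. NRIP1, also called RIP140, binds receptors that have hormone and lowers their activity, and its gene is itself an estrogen target in breast cancer cells. Retinoic acid receptor α, from Rara, and the glucocorticoid receptor, from Nr3c1, use the same coregulators. In T cells the retinoid receptor bears on gut homing and helper cell fate, and the glucocorticoid receptor restrains inflammation and can trigger death of thymocytes.

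The promoters of 3 of these genes are shown, chosen by level or fold change: Esr2 had the highest level, Rara the largest difference between the groups and Nrip1 the lowest fold change. Each runs from 250 bases before to 50 bases after a RefSeq start site, 5′ to 3′ on the gene's strand, on build GRCm38.p6. For Nrip1 and Rara the window shown was picked because it holds the marked element: 1 of 2 Nrip1 windows and 2 of 4 Rara windows hold it. Capitals mark GGTCA, a core element bound by estrogen receptors, or TGACC where it lies on the opposite strand.
Esr2, chr12:76177210-76177509, minus strand: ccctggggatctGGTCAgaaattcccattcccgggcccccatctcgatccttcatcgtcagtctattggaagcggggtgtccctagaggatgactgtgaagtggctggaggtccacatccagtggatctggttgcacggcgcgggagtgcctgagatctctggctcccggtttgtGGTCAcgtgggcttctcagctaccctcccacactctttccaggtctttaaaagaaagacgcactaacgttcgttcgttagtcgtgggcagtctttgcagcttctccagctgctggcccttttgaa
Nrip1, chr16:76373778-76374077, minus strand: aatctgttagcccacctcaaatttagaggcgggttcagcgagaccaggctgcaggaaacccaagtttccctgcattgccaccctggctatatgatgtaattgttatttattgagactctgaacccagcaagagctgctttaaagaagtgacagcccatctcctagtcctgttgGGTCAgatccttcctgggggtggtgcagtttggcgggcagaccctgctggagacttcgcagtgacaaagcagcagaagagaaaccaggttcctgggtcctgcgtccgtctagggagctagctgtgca
Rara, chr11:98939461-98939760, plus strand: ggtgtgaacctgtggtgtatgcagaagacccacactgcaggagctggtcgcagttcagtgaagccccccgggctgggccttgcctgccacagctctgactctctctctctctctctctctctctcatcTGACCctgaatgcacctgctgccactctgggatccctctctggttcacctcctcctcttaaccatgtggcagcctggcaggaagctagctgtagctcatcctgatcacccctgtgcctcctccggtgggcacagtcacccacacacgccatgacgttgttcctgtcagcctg
The 12 such windows used here belong to 6 of the 9 genes, and 5 of the 12 hold GGTCA on either strand. So do 40.5% of the 32851 promoters in the table. The full estrogen response element, GGTCA and its reverse complement spaced by 3 free bases, which is in 0.07% of all promoters, was in none of the 12. Nor were the glucocorticoid element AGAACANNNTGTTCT or the direct repeat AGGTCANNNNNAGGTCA, each in 0.00913% of all promoters. These searches covered both strands, and the motifs that contain GGTCA overlap it by construction. They describe letters in these windows and say nothing of binding.

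Levels were deposited as FPKM, a fragment count divided by transcript length and by library size, so levels of different genes can be compared per length. Depth was low, at an estimated 506000 to 704000 fragments per library. Cell markers differed between the groups and have to be read beside every result. The 26 T cell markers were all lower in both Cre-labelled libraries, with summed levels of 467 to 518 FPKM in the Cre-labelled libraries, against 1876 to 2357 FPKM in controls. Cd3e and Cd4, which define the sorted cells, were above 0 in all 4 libraries, whereas the activation marker Ctla4 had a value of 0 in each Cre-labelled library and the kinase gene Txk in the first of them. All 21 macrophage and monocyte markers in the table were higher, with summed levels of 3227 to 3783 FPKM in the Cre-labelled libraries, against 147 in control 1 and 623 in control 2. Control 1 listed 5 of these markers at 0, Adgre1, Cd14, Fcgr1, Mertk and Marco, and the other libraries listed 0 of them at 0. Dendritic cell markers summed to 4485 and 4682 FPKM in the Cre-labelled libraries, against 134 and 1477 FPKM in controls. Of these sums Cd74 alone gave 2406 and 2251 FPKM in the Cre-labelled libraries, against 37.4 and 636 FPKM in controls. H2-Ab1 gave 877 and 905 FPKM in the Cre-labelled libraries, against 9.75 and 253 FPKM in controls. H2-Eb1 gave 417.09 and 518.18 FPKM in the Cre-labelled libraries, against 6.05 and 173.89 FPKM in controls. With H2-Aa, also higher without overlap, these 4 genes gave most of the sums in the Cre-labelled libraries and control 2. No other marker of this list exceeded 73.35 FPKM in any library. Whether dendritic cells or other cells supplied the 4 genes was not tested, so the sums do not measure dendritic cell content. Of the 13 dendritic cell markers 10 were higher without overlap. Beside these marker counts, 23.2% of all tested genes were higher without overlap and 25.7% lower. Tested genes had a mean of at least 1 FPKM. Xcr1 was lower without overlap, with 46.67 and 48.48 FPKM in the Cre-labelled libraries, against 73.35 and 62.79 FPKM in controls. Natural killer cell markers summed to 477 and 557 FPKM in the Cre-labelled libraries, against 103 and 194 FPKM in controls. Tyrobp, which myeloid cells also express, gave 371 and 327 FPKM of the natural killer sums in the Cre-labelled libraries, against 12.8 and 75.4 FPKM in controls. Nkg7 and Eomes of that list were lower without overlap. B cell markers summed to 209 and 97 FPKM in the Cre-labelled libraries, against 70 and 94 FPKM in controls, of which Cd22 alone gave 199 and 76.3 FPKM in the Cre-labelled libraries and 51.7 and 65.9 FPKM in controls. Erythroid markers summed to 5242 to 6693 FPKM in the Cre-labelled libraries, against 221 FPKM in control 1 and 8395 FPKM in control 2. In such sorted bulk samples fewer cells of a type and less RNA per cell cannot be told apart. The part of these shifts in the results below was not tested.

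Esr1 was at or near the limit of detection in every library. Esr1 (NCBI gene 13982, GRCm38 chromosome 10, 4611989 to 5005633) was listed at 0 in Cre-labelled library 1 and at 1.96 FPKM in Cre-labelled library 2, against 0.23 FPKM in control 1 and a value listed at 0 in control 2. The highest value thus stood in a Cre-labelled library, and the groups overlapped. The 5 listed transcripts are 2612 to 6339 bases long, so the 1.96 FPKM rest on 2.9 to 7.0 estimated fragments and the 0.23 FPKM on 0.4 to 1.0. A count of 0 allows up to 3 fragments, which on the longest transcript is 0.94 and 0.84 FPKM in the Cre-labelled libraries and 0.67 and 0.70 FPKM in controls. On the shorter transcripts these limits are higher. By the length of the longest transcript, the second Cre-labelled library alone lay above its limit, while by the shortest its 2.9 fragments lay under 3. A search for stretches of at least 50 bases at 90% identity found none shared between these transcripts and those of another gene. Short or diverged matches could be missed by it. A gene-level value also counts fragments from parts of the transcript outside the flanked segment. The labels could therefore not be checked from Esr1. With a mean of 0.547 FPKM the gene was below the minimum for testing, a mean of 1 FPKM over the 4 libraries.

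Esr2 was listed as the most abundant of the 9 genes, above 94.8% and 97.3% of all genes in the Cre-labelled libraries and above 93.6% and 96.5% in controls. Esr2 (NCBI gene 13983, GRCm38 chromosome 12, 76120419 to 76177259) had 86.1 and 165 FPKM in the Cre-labelled libraries, against 67.3 and 122 FPKM in controls. The groups overlapped, and in each group library 2 exceeded library 1, by 1.91-fold in the Cre-labelled libraries and 1.81-fold in controls. The log2 fold change, here always the difference of means of log2(FPKM + 1), was 0.39 ± 0.45 (SE, n = 2 each, adjusted p = 0.707 in limma, 95% interval -0.74 to 1.52). It turned to -0.07 without the second Cre-labelled library and to -0.03 without control 1. Unlike the Esr1 value, the Esr2 value rests on many fragments, an estimated 137 to 308 in the Cre-labelled libraries and 149 to 271 in controls.

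Sequence shared with other genes touches the Esr2 level in a limited part of the transcript. In the annotation used, GENCODE M21, 0 exon bases of Esr2 overlapped an exon of another gene. However, 276 of the 3288 bases of a listed transcript of Esr2 (8.39%), all after the coding sequence, matched transcripts of 36 other genes over at least 50 bases at 90% identity or more. The longest match, 140 bases, was with Mpv17. Of those 36 genes 22 were in the table, with medians of 9.56 and 11.5 FPKM in the Cre-labelled libraries and 14.5 and 11.4 FPKM in controls. The highest among them was Spc24, at 1135 and 929 FPKM in the Cre-labelled libraries and 1098 and 870 FPKM in controls. How many Esr2 fragments lie in the shared bases cannot be read from a gene-level value, so the level of Esr2 is uncertain.

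**Figure D1:**
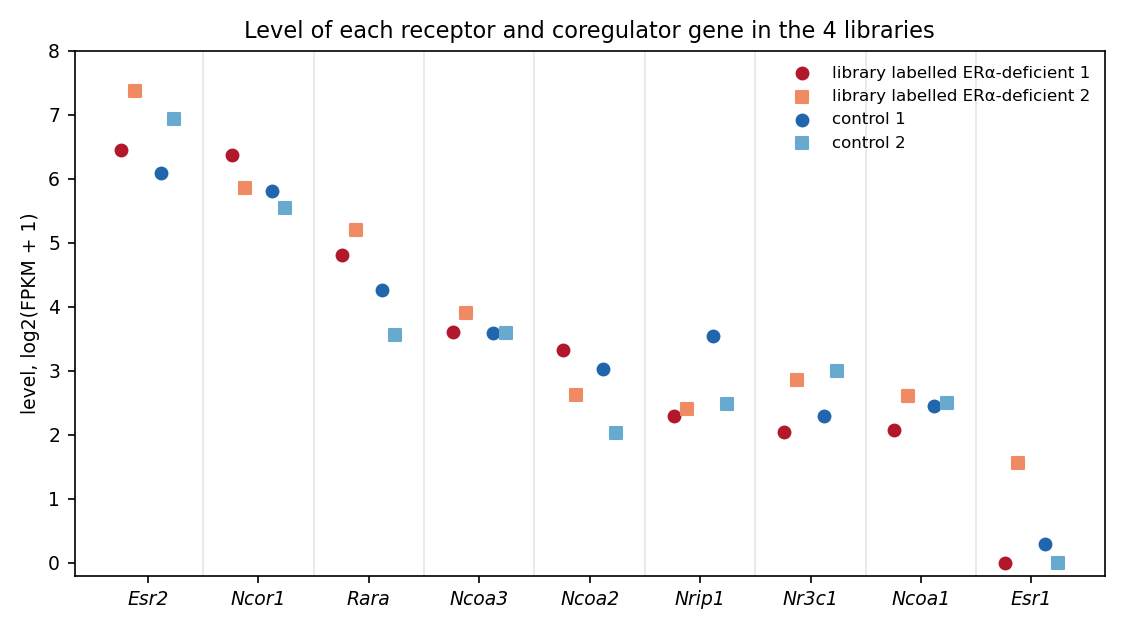
Level of each gene as log2(FPKM + 1) on the vertical axis, with 1 point per library, circles for library 1 and squares for library 2 of each group. Esr2 and Ncor1 lie highest and Esr1 lies at or near 0, while Rara is the gene whose groups are separated most.

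The 3 p160 coactivators were present at low to moderate levels, and none differed between the groups beyond the spread of the libraries. Ncoa3 (NCBI gene 17979, GRCm38 chromosome 2, 165992637 to 166073242), the most abundant of them, had 11.2 and 14.0 FPKM in the Cre-labelled libraries, against 11.0 and 11.0 FPKM in controls. The groups did not overlap, a pattern seen in 23.2% of all tested genes in this direction, but the first Cre-labelled library exceeded the controls by far less than the counting error, with a 95% Poisson interval of 7.97 to 14.9 FPKM from 42 estimated fragments. Its log2 fold change was 0.17 ± 0.36 (SE, adjusted p = 0.847 in limma, 95% interval -0.73 to 1.08), and it was 0.32 without the first Cre-labelled library and 0.02 without the second. Ncoa3 shares 154 exon bases with Sulf2 on the opposite strand, a gene with 10.5 and 13.0 FPKM in the Cre-labelled libraries and 2.25 and 1.18 FPKM in controls.

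Ncoa1 (NCBI gene 17977, GRCm38 chromosome 12, 4247362 to 4477206) had 3.22 and 5.06 FPKM in the Cre-labelled libraries, against 4.44 and 4.65 FPKM in controls. The control values lay between the other group's values, on 23 estimated fragments in each control. Ncoa1 shares 68 exon bases with 4921501I09Rik on the opposite strand. Ncoa2 (NCBI gene 17978, GRCm38 chromosome 1, 13139105 to 13374227) had 9.04 and 5.13 FPKM in the Cre-labelled libraries, against 7.18 and 3.09 FPKM in controls. Here library 1 was the higher of each group and the groups overlapped. Log2 fold changes were -0.13 ± 0.46 for Ncoa1 and 0.44 ± 0.55 for Ncoa2 (SE, adjusted p = 0.909 and 0.729 in limma), with 95% intervals of -1.28 to 1.01 and -0.92 to 1.80. The sign of Ncoa1 turned without the first Cre-labelled library (0.13) and that of Ncoa2 without control 2 (-0.06). Ncoa2 also shares 543 bases at high identity with D030018L15Rik. Summed over the 3 coactivators, the level was 23.5 and 24.2 FPKM in the Cre-labelled libraries and 22.7 and 18.7 FPKM in controls.

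Ncor1, the corepressor, was more abundant than the 3 coactivators together in every library. Ncor1 (NCBI gene 20185, GRCm38 chromosome 11, 62315663 to 62457414) had 81.4 and 57.2 FPKM in the Cre-labelled libraries, against 55.3 and 45.5 FPKM in controls. Values of the groups did not overlap, as in 23.2% of all tested genes in this direction. The lower Cre-labelled library stood only slightly above control 1. The log2 fold change was 0.44 ± 0.32 (SE, adjusted p = 0.552 in limma, 95% interval -0.37 to 1.24). It was 0.19 without the first Cre-labelled library, 0.69 without the second and 0.30 without control 2. Relative to the summed coactivators, Ncor1 stood at 3.47 and 2.36 in the Cre-labelled libraries and at 2.44 and 2.43 in controls, so the groups overlapped in this ratio.

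The Ncor1 level is uncertain in part. Its 3 listed transcripts run from 3171 to 8852 bases, and the shortest shares 24% of its bases with transcripts of 1376 other genes, with 205 of those bases after its coding sequence. All 3 transcripts share bases with the gene Gm6743, over up to 556 bases in 1 stretch. The longer transcripts, of 8852 and 7243 bases, share 1083 bases (12.23% and 14.95%), with Gm6743 only. Ncor1 also touches Pigl, on the opposite strand, over 82 exon bases and Ttc19 over 1, and Pigl had 7.27 and 5.44 FPKM in the Cre-labelled libraries and 2.61 and 0.91 FPKM in controls.

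Nrip1, the corepressor of receptors with hormone, was the only tested gene of the 9 with lower values in both Cre-labelled libraries than in both controls. Over all tested genes 25.7% had this pattern. Nrip1 (NCBI gene 268903, GRCm38 chromosome 16, 76287403 to 76373827) had 3.93 and 4.31 FPKM in the Cre-labelled libraries, against 10.7 and 4.61 FPKM in controls. The separation rests on control 1, since control 2 stood within counting error of the other group: 14 estimated fragments gave a 95% Poisson interval of 2.52 to 7.74 FPKM. Control 1 had 34 estimated fragments and an interval of 7.43 to 15.0 FPKM. The log2 fold change was -0.66 ± 0.52 (SE, adjusted p = 0.569 in limma, 95% interval -1.95 to 0.63), and without control 1 it was -0.13, without control 2 -1.19. The search found 0 bases of the listed Nrip1 transcript shared with other genes, though it could miss short or diverged matches.

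Rara had the largest difference of the 8 tested genes. Rara (NCBI gene 19401, GRCm38 chromosome 11, 98927800 to 98974942) had 27.2 and 35.9 FPKM in the Cre-labelled libraries, against 18.2 and 10.8 FPKM in controls. Both values of the first group exceeded both controls, as in 23.2% of all tested genes. The log2 fold change was 1.09 ± 0.40 (SE, n = 2 each, unadjusted p = 0.0358 and adjusted p = 0.283 in limma, 95% interval 0.10 to 2.09), so Rara did not pass after adjustment over all genes. It was 0.74 to 1.45 with any 1 library left out, on 34 to 68 estimated fragments in the Cre-labelled libraries and 18 to 43 in controls across its listed transcripts. After the coding sequence, 3 of its 4 listed transcripts hold 91 bases that match transcripts of 1366 other genes. Rxra, a partner with which retinoic acid receptors bind DNA, was named for that role after its values had been seen. It had 5.25 and 6.28 FPKM in the Cre-labelled libraries and 1.67 and 1.46 FPKM in controls, with a log2 fold change of 1.40 ± 0.47 (SE, adjusted p = 0.255 in limma). The log2 fold changes of Rxrb and Rxrg, which share that role, were 0.30 ± 0.38 and 0.34 ± 0.63 (SE, adjusted p = 0.731 and 0.823 in limma). Among the other retinoic acid receptors, also named after their values had been seen, Rarb had a log2 fold change of -1.38 ± 0.61 and Rarg 0.03 ± 0.46 (SE, adjusted p = 0.35 and 0.978 in limma).

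Nr3c1 was expressed at a low level in all 4 libraries and its difference between the groups was smaller than its SE. Nr3c1 (NCBI gene 14815, GRCm38 chromosome 18, 39410545 to 39519421) had 3.12 and 6.23 FPKM in the Cre-labelled libraries, against 3.88 and 6.99 FPKM in controls. The groups overlapped, and library 2 was higher than library 1 in each, by 2.0-fold in the Cre-labelled libraries and 1.8-fold in controls. The estimated fragments behind these values were 10 and 22 in the Cre-labelled libraries and 17 and 30 in controls. Poisson intervals of the 2 Cre-labelled libraries, 1.5 to 5.77 and 3.87 to 9.34 FPKM, overlapped. The log2 fold change was -0.19 ± 0.53 (SE, adjusted p = 0.882 in limma, 95% interval -1.52 to 1.13). It turned to 0.21 without the first Cre-labelled library and to 0.16 without control 2. Within its coding sequence, 86 bases of the listed Nr3c1 transcript (1.36%) matched transcripts of 89 other genes, 43 of them in the table.

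Ranked by level over the 4 libraries, the order was Esr2, Ncor1, Rara, Ncoa3, Ncoa2, Nrip1, Nr3c1, Ncoa1 and Esr1, with means of 110, 59.8, 23.0, 11.8, 6.11, 5.88, 5.05, 4.34 and 0.547 FPKM. Esr2 exceeded Ncor1 and Ncor1 exceeded Rara in each library. Rara exceeded Ncoa3 in 3 libraries, but not in control 2, where Rara had 10.8 FPKM and Ncoa3 11.0 FPKM. Ncoa2, Nrip1, Nr3c1 and Ncoa1 traded places from library to library, and their order is not beyond the spread.

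Over the whole table, 12896 genes were tested in limma, and at an adjusted p under 0.05 the higher calls were 2 (0.0155%) and the lower calls 5 (0.0388%). BC028528 and Fam177a were higher, and H2-Q9, Mir3064, Mir7674, Snord104 and Snord96a were lower, all named after their values had been seen. Each of these 7 was listed at 0, or at up to 0.01 FPKM for H2-Q9, in both libraries of 1 group, and short RNAs and members of multigene families such as H2-Q9 have uncertain values. At an unadjusted p under 0.05, 9.10% of tested genes were higher and 6.80% lower. Of the 8 tested receptor and coregulator genes 0 passed the adjusted threshold, with adjusted p between 0.283 and 0.909, and 1, Rara, had an unadjusted p under 0.05. An exact permutation test of 2 libraries against 2 cannot give a two-sided p under 0.33 for a single gene, so none was run. Ncor1, Rara and Ncoa3 were higher without overlap, where 23.2% of all tested genes were, and Nrip1 was lower without overlap, where 25.7% were. The median log2 fold change of the 8 genes was 0.28, against -0.07 over all tested genes.

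The direction of 3 of the 8 genes depends on the scale. When each library was scaled to its T cell markers, the median log2 fold change of all genes moved to 1.96, and 68.2% of all tested genes were called higher and 0.31% lower. All 8 genes were then called higher, at log2 fold changes of 1.36 to 3.35, which turned Nrip1, Ncoa1 and Nr3c1. Relative to the median of all genes on that scale they lay at 1.39 for Rara, 0.83 for Ncor1, 0.81 for Esr2, 0.48 for Ncoa2, 0.40 for Ncoa3, -0.17 for Ncoa1, -0.21 for Nr3c1 and -0.60 for Nrip1. The scaling shifts all genes in a library together, so it largely keeps their order by construction. On the FPKM scale the 8 genes lay between -0.66 and 1.09, and the T cell markers had a median of -2.54.

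**Figure D2:**
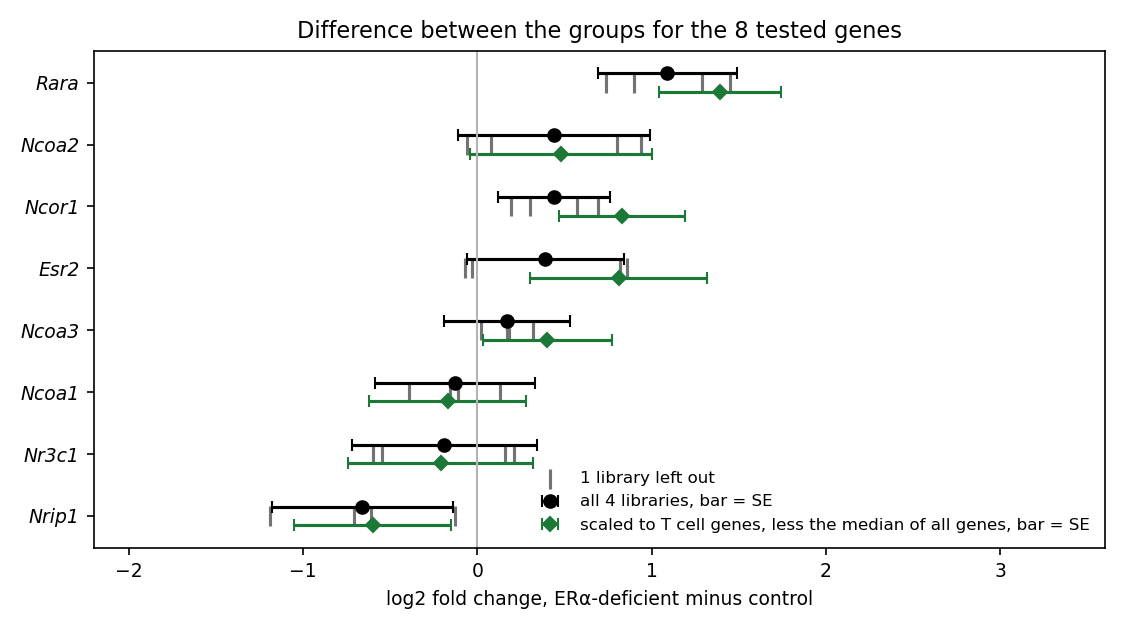
Log2 fold change of the 8 tested genes, Cre-labelled (ERα-deficient) minus control, on the horizontal axis. Black circles with SE bars are from all 4 libraries, grey ticks leave out 1 library each, and green diamonds with SE bars are after scaling to T cell genes, less the median of all genes. With Cre-labelled libraries over controls, all Rara symbols lie above 0 and all Nrip1 symbols below 0 (Nrip1 is at 1.36 on the T cell scale before the median is taken off), while the grey ticks of Esr2, Ncoa1, Ncoa2 and Nr3c1 fall on both sides.

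Library numbers are tied to nothing shared in the labels. In 5 of the 8 tested genes library 2 differed from library 1 the same way in both groups, as did 49.2% of all tested genes, a share close enough that nothing is read from it. Esr2, Nr3c1 and Ncoa1 were higher in library 2 of each group, and Ncor1 and Ncoa2 higher in library 1. In Esr2 and Nr3c1 the step between libraries of a group, at 0.93 and 0.81 in the Cre-labelled libraries and 0.84 and 0.71 in controls on the log2 scale, was larger than the difference between group means.

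**Figure D3:**
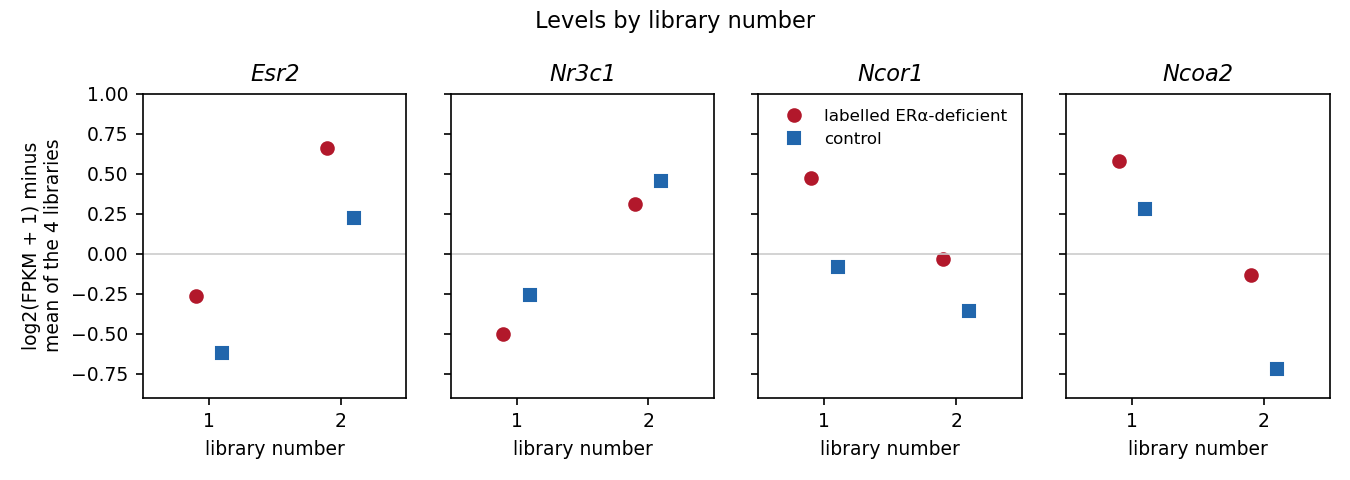
Each panel shows 1 gene, with log2(FPKM + 1) less the mean of the 4 libraries on the vertical axis and the library number on the horizontal axis. In Esr2 and Nr3c1 both library 2 values lie above both library 1 values, and in Ncoa2 both lie below. In Ncor1 the values overlap between library numbers. All genes shown differ the same way in both groups, while Nrip1, Ncoa3 and Rara, not shown, differ in opposite ways.

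Genes with the most similar pattern were sought among 4785 or 4786 genes (predicted genes and short RNAs left out) with a mean of at least 10 FPKM, by the Euclidean distance between centred log2(FPKM + 1) values over the 4 libraries. With so few libraries many genes come close. Nearest to Esr2 were Pdia6 (distance 0.072), Mdh1 (0.079) and Adipor1 (0.125). For Nrip1 they were Tnrc6a (0.083), Ccdc9 (0.10) and Carhsp1 (0.17), all highest in control 1, as Nrip1 was. Ncor1 lay nearest to Nvl (0.064), Evl (0.065) and Urod (0.065), and Rara to Zdhhc16 (0.048), Nfkbiz (0.113) and Plekhg6 (0.141). Nr3c1 lay nearest to Dctn5 (0.075), Birc3 (0.092) and Bnip3l (0.094). Of these neighbours, Zdhhc16 shares 959 exon bases with Mms19, Evl 278 with Degs2, Nvl 1137 with Fgfr3-ps, Tnrc6a 143 with Gm45846 on the same strand, Mdh1 52 with Wdpcp and Pdia6 50 with Atp6v1c2.

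The wider receptor family was mixed. Of 43 other nuclear receptor genes 35 were in the table and 24 could be tested, with 0 called in either direction. Without overlap 7 were higher and 4 lower (29.2% and 16.7%, against 23.2% and 25.7% of all tested genes), and their median log2 fold change was 0.20. It was -0.06 without control 2, 0.35 without the second Cre-labelled library, 0.07 with no filter and 0.48 with voom weights. Voom weights were fitted only to genes with 1 transcript, so that median is over those genes of the list only. By level the leading 4 were Thra, Nr1i3, Nr4a1 and Rxrg. Thra, the thyroid hormone receptor α, had 105 and 89.8 FPKM in the Cre-labelled libraries, against 48.2 and 20.5 FPKM in controls. Nr4a1, an orphan receptor induced rapidly by T cell receptor signalling, had 19.6 and 48.0 FPKM in the Cre-labelled libraries, against 5.64 and 4.74 FPKM in controls. Both were higher without overlap, with log2 fold changes of 1.59 ± 0.46 and 2.36 ± 0.51 (SE, adjusted p = 0.206 and 0.152 in limma). Thra shares 263 exon bases with Nr1d1 on the opposite strand. Nr1i3, with 15.3 and 17.8 FPKM in the Cre-labelled libraries, against 34.0 and 13.8 FPKM in controls, shares 3304 of its 4414 exon bases with Tomm40l, so its value is uncertain. Rxrg had 31.1 and 9.99 FPKM in the Cre-labelled libraries and 19.3 and 9.90 FPKM in controls.

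Other coactivators were close to the median of all genes. All 32 were in the table and 31 tested, with 0 called, 5 higher and 8 lower without overlap (16.1% and 25.8%, against 23.2% and 25.7% of all tested genes), and a median log2 fold change of -0.12. The 4 most abundant were Ddx5, an RNA helicase that acts as a coactivator, Pnrc1, Carm1, the arginine methyltransferase recruited by p160 proteins, and Kat5. Ddx5, which shares 67 exon bases with Mir3064, had 226 and 304 FPKM in the Cre-labelled libraries, against 295 and 275 FPKM in controls. Carm1, which shares 1025 exon bases with Yipf2 on the opposite strand, had 59.9 and 53.2 FPKM in the Cre-labelled libraries, against 43.0 and 41.8 FPKM in controls (log2 fold change 0.40 ± 0.29 SE, limma adjusted p = 0.534). Pnrc1 had 48.5 and 65.7 FPKM in the Cre-labelled libraries and 71.8 and 37.3 FPKM in controls. Kat5 had 42.7 and 28.7 FPKM in the Cre-labelled libraries, against 39.2 and 48.7 FPKM in controls and shares 426 exon bases with Rnaseh2c.

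Other corepressors lay somewhat lower. Of 26 tested genes of 27 listed, 0 were called, 2 were higher and 13 lower without overlap (7.69% and 50%, against 23.2% and 25.7% of all tested genes), and the median log2 fold change was -0.42. The 4 most abundant were Safb2, Safb, Rbbp7 and Gps2. Safb, a scaffold protein that represses estrogen receptor α, had 49.9 and 37.0 FPKM in the Cre-labelled libraries, against 60.0 and 55.6 FPKM in controls. Its near relative Safb2, with which it could share fragments, had 84.2 and 57.8 FPKM in the Cre-labelled libraries, against 72.3 and 52.0 FPKM in controls. Rbbp7, a histone-binding subunit of deacetylase complexes, had 34.2 and 45.7 FPKM in the Cre-labelled libraries, against 53.6 and 58.9 FPKM in controls. It shares 174 exon bases with Txlng on the opposite strand. Gps2, a subunit of the NCOR complex, had 41.5 and 44.7 FPKM in the Cre-labelled libraries and 69.1 and 32.5 FPKM in controls. Hdac3, the deacetylase of that complex, was named for this role after its values had been seen, with 4.98 and 8.95 FPKM in the Cre-labelled libraries, against 13.6 and 14.3 FPKM in controls (log2 fold change -0.95 ± 0.43 SE, limma adjusted p = 0.354). In the same libraries the T cell markers had a median log2 fold change of -2.54, and its part in the corepressor values was not tested.

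Chaperones that hold steroid receptors ready for hormone gave no call. All 15 were tested, 0 were called, and 1 was higher and 5 lower without overlap (6.67% and 33.3%, against 23.2% and 25.7% of all tested genes), at a median log2 fold change of -0.21. Hsp90ab1 had 639 and 592 FPKM in the Cre-labelled libraries, against 779 and 749 FPKM in controls, and Hsp90aa1 had 151 and 244 FPKM in the Cre-labelled libraries, against 250 and 275 FPKM in controls. Both were lower without overlap, with log2 fold changes of -0.31 ± 0.23 and -0.45 ± 0.32 (SE, adjusted p = 0.545 and 0.538 in limma). Hspa8 had 749 and 533 FPKM in the Cre-labelled libraries and 417 and 545 FPKM in controls, and Stub1, which shares 1084 exon bases with Jmjd8, had 119 and 112 FPKM in the Cre-labelled libraries, against 126 and 92.2 FPKM in controls. Hsp90ab1 and Hspa8 have near-identical processed copies in the genome, so their values are uncertain.

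Estrogen response genes, a list drawn largely from breast and uterine cells, had a higher median than all genes. Of 24 listed, 19 were in the table and 17 tested, 0 were called, and 9 were higher and 3 lower without overlap (52.9% and 17.6%, against 23.2% and 25.7% of all tested genes). The median log2 fold change was 0.85, and it ranged from 0.37 to 1.01 over the alternatives other than scaling to T cell genes. The 1.01 came with voom weights, fitted only to genes with 1 transcript. Ctsd, a lysosomal protease, had 189 and 190 FPKM in the Cre-labelled libraries, against 52.3 and 87.5 FPKM in controls (log2 fold change 1.47 ± 0.34 SE, limma adjusted p = 0.16). It shares 808 of its 2351 exon bases with Gm49369 on the same strand. Ccnd1, which encodes cyclin D1, had 33.4 and 43.6 FPKM in the Cre-labelled libraries, against 11.6 and 14.9 FPKM in controls, and shares 1100 exon bases with a gene on the opposite strand. Ltf, the granule protein lactoferrin, had 87.8 and 173 FPKM in the Cre-labelled libraries and 43.8 and 103 FPKM in controls, and Slc9a3r1 had 28.1 and 29.9 FPKM in the Cre-labelled libraries, against 23.2 and 37.6 FPKM in controls. Ctsd is also in the macrophage list and Ltf in the neutrophil list, and those markers were higher in the same libraries: 21 of 21 macrophage markers were higher without overlap, at a median log2 fold change of 3.88. Of 13 neutrophil markers 7 were, and the median over the 13 was 1.15. Their part in the estrogen response values was not tested.

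Retinoid genes gave no call either. Of 19 listed, 14 were in the table and 11 tested, with 0 called, 2 higher and 4 lower without overlap (18.2% and 36.4%, against 23.2% and 25.7% of all tested genes) and a median log2 fold change of -0.32. That median was -0.08 without the first Cre-labelled library, -0.11 without control 2 and -0.53 without control 1. With a pseudocount of 0.1 it was -0.57, and with voom weights, fitted only to genes with 1 transcript, -0.66. It was -0.04 among genes with a mean of at least 5 FPKM, where all genes had -0.08. Itgb7 encodes 1 chain of a gut homing integrin whose level on T cells retinoic acid raises. It had 39.1 and 33.8 FPKM in the Cre-labelled libraries, against 99.6 and 86.2 FPKM in controls (log2 fold change -1.33 ± 0.29 SE, limma adjusted p = 0.154). Itga4, its partner chain, had 39.9 and 47.0 FPKM in the Cre-labelled libraries, against 46.9 and 52.6 FPKM in controls, and shares 1124 exon bases with Cerkl. Tgm2, a transglutaminase induced by retinoic acid in macrophages, had 33.5 and 46.2 FPKM in the Cre-labelled libraries and 1.61 and 13.1 FPKM in controls (log2 fold change 2.74 ± 0.81 SE, limma adjusted p = 0.217). It shares 370 exon bases with Rprd1b and 633 with Gm20412, both on the opposite strand. Rarres2 had 117 and 97.1 FPKM in the Cre-labelled libraries, against 111 and 88.1 FPKM in controls and shares 892 exon bases with Lrrc61. The T cell and macrophage markers given above differed in the same directions as Itgb7 and Tgm2.

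Glucocorticoid response genes went both ways. Of 21 listed, 18 were tested, 0 were called, and 7 were higher and 4 lower without overlap (38.9% and 22.2%, against 23.2% and 25.7% of all tested genes), at a median log2 fold change of 0.30. That median was 0.55 without the first Cre-labelled library, 0.06 without the second, -0.02 without control 2 and -0.57 with voom weights. The last value is over listed genes with 1 transcript only, since voom weights were fitted only to such genes. Zfp36, which destabilizes cytokine messages, had 182 and 155 FPKM in the Cre-labelled libraries, against 65.2 and 70.1 FPKM in controls (log2 fold change 1.30 ± 0.27 SE, limma adjusted p = 0.148). It shares 125 exon bases with Gm44710 on the opposite strand. Dusp1, a phosphatase of MAP kinases, had 107 and 180 FPKM in the Cre-labelled libraries, against 85.4 and 46.3 FPKM in controls. Nfkbia had 73.2 and 96.3 FPKM in the Cre-labelled libraries and 130 and 74.1 FPKM in controls, and Anxa1 had 62.1 and 83.03 FPKM in the Cre-labelled libraries, against 48.8 and 67.5 FPKM in controls. Fkbp5, a chaperone of the receptor and a frequent readout of it, was named for this role after its values had been seen. It had 7.14 and 5.95 FPKM in the Cre-labelled libraries, against 26.0 and 15.4 FPKM in controls, lower without overlap (log2 fold change -1.48 ± 0.42 SE, limma adjusted p = 0.202). Tsc22d3 and Per1 of the same list, also named after their values had been seen, did not share this pattern. Tsc22d3 overlapped between the groups (log2 fold change -0.53 ± 0.57 SE, limma adjusted p = 0.679). Per1 was higher without overlap (log2 fold change 0.97 ± 0.58 SE, limma adjusted p = 0.47).

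**Figure D4:**
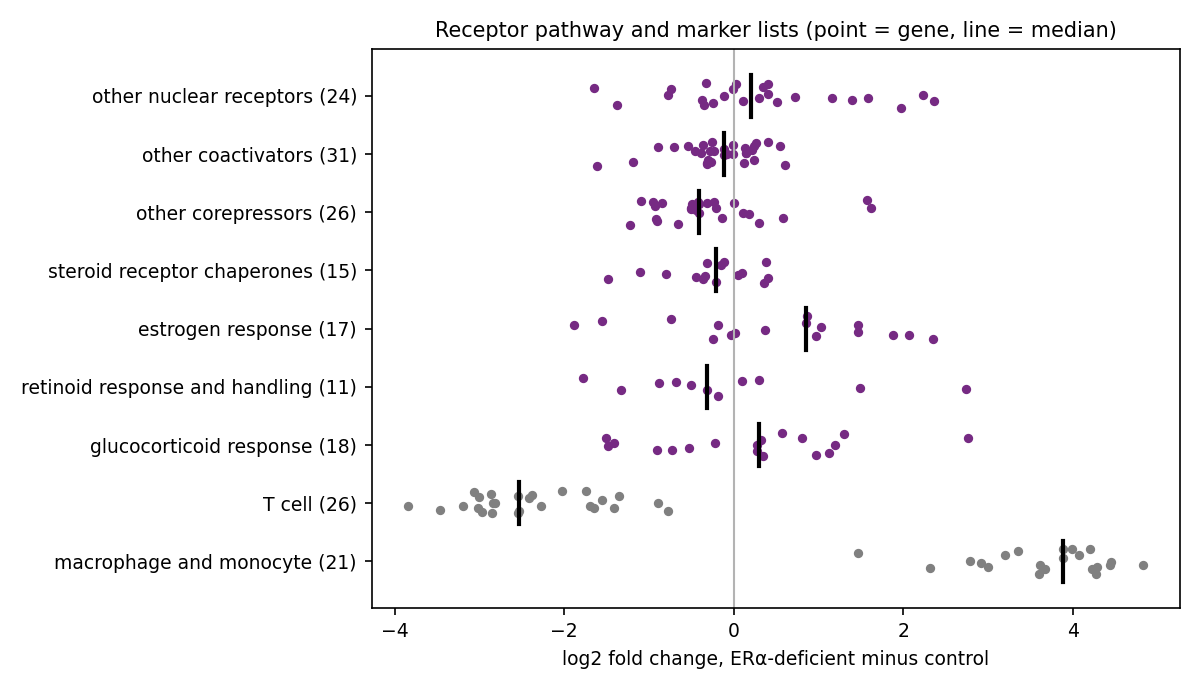
Log2 fold change of each tested gene, Cre-labelled (ERα-deficient) minus control, on the horizontal axis, for 7 receptor pathway lists in purple and 2 marker lists in grey, with the number of tested genes in brackets and the median as a black line. Medians of the pathway lists lie between -0.42 and 0.85, between those of the T cell markers at -2.54 and the macrophage and monocyte markers at 3.88.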

How the data were processed

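RNA of 4 libraries, 2 Cre-labelled and 2 controls, was represented by 1 table of FPKM values that the authors deposited. Per the submitters' processing notes the tools were HISAT, Bowtie2 and RSEM and the build mm10, with no version. The sources used here do not say whether strand was used. RSEM assigns fragments of similar transcripts by estimate, so a value listed at 0 can be a failed assignment. Symbols turned into dates (23) were restored from gene identifiers, of which 16183 matched RefSeq for GRCm38.p6 and 47 did not.

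Genes with a mean of at least 1 FPKM (12896) entered a fit in R 4.3.3 with limma 3.58.1. The scale was log2(FPKM + 1), on which changes of low genes are understated. It had group as the only term, a variance trend, two-sided tests and Benjamini-Hochberg adjustment over all of them. The call threshold was an adjusted p under 0.05, and a p-value reflects only how these libraries scatter. A run on simulated data, without a shift in cell types, required only that the direction of strongly changed genes be recovered. How often it called unchanged genes is not given here. Depth was estimated from the step of FPKM times length in 10348 genes with 1 transcript over 800 bases; 78.7% to 80.5% of low values lay within 0.2 of a whole fragment. Poisson intervals and zero limits cover counting error only. Shared sequence was searched with BLASTN in GENCODE M21 transcripts, from exact seeds of 28 bases and with a strict limit on random matches. Matches near the limits of length and identity could be missed, so the shared bases given are lower bounds. Promoters came from RefSeq.

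The genes and lists were chosen with earlier results of these data known. Named list genes were the 4 of highest mean level per list and any called gene, unless stated otherwise. Alternatives covered the pseudocount, the filter, scaling, the variance trend, weights, a replicate block and leaving out each library. Libraries were not paired. The values of 1 related gene are not reported here.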

Additional observations from a re-analysis of the deposited data

How the results depend on the processing

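Of 99 fold changes of the 8 tested genes over the alternatives, 85 kept their direction and side of the threshold. Direction turned in 9, and scaling to T cell genes made all 8 genes calls. It kept the direction of 5, at log2 fold changes of 2.77 for Esr2, 2.44 for Ncoa2, 2.36 for Ncoa3, 2.79 for Ncor1 and 3.35 for Rara, and turned Nrip1 (1.36), Ncoa1 (1.79) and Nr3c1 (1.75), 3 of the 9. By its construction this scaling raises all genes in the libraries with low T cell markers, and it called 8791 genes higher and 40 lower. With 1 library left out, the log2 fold change ranged from -0.07 to 0.86 for Esr2, from -0.39 to 0.13 for Ncoa1, from -0.06 to 0.94 for Ncoa2, from -0.60 to 0.21 for Nr3c1, from 0.19 to 0.69 for Ncor1 and from 0.02 to 0.32 for Ncoa3, and 0 genes were called higher or lower over the whole table. A pseudocount of 0.1, no filter, no variance trend and the replicate block each gave 0 higher and 0 lower calls, with 1813, 2266, 1996 and 1888 genes at an unadjusted p under 0.05. A mean of at least 5 FPKM gave 0 higher calls. Voom weights, which could be used only for genes with 1 transcript, gave 102 higher and 32 lower calls, with none of Nrip1, Ncoa1, Ncoa3 and Nr3c1 among them. The labels tie equal library numbers to no shared animal or day, deviations of same-numbered libraries had a Pearson's r of -0.002 across genes, which are not independent, and the replicate block changed no call of the 8 genes (Rara adjusted p = 0.355 in limma). The cause of the other changes was not tested. Depth limits the low genes: 1 fragment on 2000 bases was worth 0.71 to 0.99 FPKM.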
